A study of Homo sapiens with 10 samples.

Results

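The genes described here encode the cytoplasmic actins ACTB and ACTG1, the alpha-tubulins TUBA1A, TUBA1B and TUBA1C, and the beta-tubulins TUBB, TUBB2A, TUBB2B, TUBB4B and TUBB6. They are a list of 10 members, taken by name from the 19974 protein-coding genes of RefSeq (GRCh38.p14) on chromosomes 1 to 22 and X. All 10 members were found in the gene table. The assay was DRIP-seq: the antibody S9.6, which binds RNA-DNA hybrids, precipitates hybrids from sonicated nucleic acids, in U2OS cells, an established human osteosarcoma line. One genotype was wild type (WT), and the other TDP1 H493R, the change behind the neurodegenerative syndrome SCAN1. Peak lists of 5 libraries were used: WT replicate 1 and SCAN1#1 replicate 1 come from experiment 1, and WT replicate 2, SCAN1#1 replicate 2 and SCAN1#2 replicate 2 from experiment 2, where SCAN1#1 and SCAN1#2 are separate mutant lines. All libraries are from U2OS cells without a further treatment in the labels, and the antibody lots differed between the experiments, so that experiment and lot cannot be told apart. Nothing in the labels tells whether the replicates are independent cultures or each mutant line a clone, so p-values measure only the spread between these samples.

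Actins and tubulins are the subunits of the cytoskeleton. ACTB and ACTG1 build the actin filaments of non-muscle cells, and an alpha- and a beta-tubulin together form the dimer from which microtubules grow. Several genes encode nearly the same protein within each family, and they differ mainly in the cells in which they are active, with TUBA1A and TUBB2B best known from developing neurons. Highly transcribed genes are known to carry RNA-DNA hybrids over their bodies and at their ends, and ACTB is a common positive control for DRIP.

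The study asked how the TDP1 mutation bears on breaks that arise with transcription, and TDP1 itself clears trapped topoisomerase 1 from DNA. The lists held 63456 to 110745 peaks that covered 41.4 to 66.8 Mb. The lists hold no read depth, so the number of reads behind a value is unknown. As a check of the labelled cell type against marker genes, 6 of 8 osteoblast and mesenchymal genes had a peak in every library. So did 47.9% of all protein-coding genes. Mean coverage of these markers ran from 41.4% for VIM and 38.8% for COL1A1 to 2.16% for FN1 and 1.27% for RUNX2. TWIST1 and COL1A2 had no peak. Of 8 markers of other lineages 7 had no peak in any library, beside 4547 of all 19974 protein-coding genes, and GFAP had one in 2. A peak shows hybrids over a gene and is not a measure of its transcript level.

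Sequence upstream of the transcript starts was available for 9 of the 10 members (13 starts, RefSeq windows of 250 bases before and 50 after the start). A peak lay over the start in all 5 libraries at 3 of these starts and in none at 5. Those that show the contrast are printed here as the 250 bases before the start, 5′ to 3′ on the transcribed strand (GRCh38.p14). Capitals mark matches on either strand, which may overlap. The strings are TATAAA (a form of the TATA box), CCAAT and GGGCGG (the GC box). The CArG box, the element bound by serum response factor, is marked as well. TUBA1B had peaks over its start in all libraries, and TUBA1A on the same stretch of chromosome 12 in none. TUBA1C has an inner start with peaks and an outer start without. Only peaks over the start base itself were counted. The TUBA1A peak of SCAN1#2 began 3 bases past the start. In SCAN1#1 replicate 2 and SCAN1#2 the ACTG1 peak began 10 and 13 bases past it. ACTG1 is the actin gene with an entry, and TUBB2A and TUBB2B are neighbours on chromosome 6 with peaks over the start in 4 and 0 libraries.
TUBA1B (chr12:49131396-49131645, minus strand): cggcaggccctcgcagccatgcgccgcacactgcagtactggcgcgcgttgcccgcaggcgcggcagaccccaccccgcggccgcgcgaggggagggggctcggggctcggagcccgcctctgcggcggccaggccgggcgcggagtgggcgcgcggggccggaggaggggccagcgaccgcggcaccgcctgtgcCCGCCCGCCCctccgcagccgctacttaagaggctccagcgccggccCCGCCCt
TUBA1A (chr12:49189081-49189330, minus strand): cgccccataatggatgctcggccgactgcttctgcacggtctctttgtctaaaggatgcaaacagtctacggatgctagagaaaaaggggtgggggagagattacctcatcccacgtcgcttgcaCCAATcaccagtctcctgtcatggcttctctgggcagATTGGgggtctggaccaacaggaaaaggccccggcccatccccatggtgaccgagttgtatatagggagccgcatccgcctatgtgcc
TUBA1C inner start (chr12:49264832-49265081, plus strand): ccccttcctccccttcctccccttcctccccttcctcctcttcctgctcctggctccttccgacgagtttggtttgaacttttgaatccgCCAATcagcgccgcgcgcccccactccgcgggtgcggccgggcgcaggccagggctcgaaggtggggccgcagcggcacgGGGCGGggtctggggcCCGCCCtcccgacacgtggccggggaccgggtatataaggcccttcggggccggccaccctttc
TUBA1C outer start (chr12:49227676-49227925, plus strand): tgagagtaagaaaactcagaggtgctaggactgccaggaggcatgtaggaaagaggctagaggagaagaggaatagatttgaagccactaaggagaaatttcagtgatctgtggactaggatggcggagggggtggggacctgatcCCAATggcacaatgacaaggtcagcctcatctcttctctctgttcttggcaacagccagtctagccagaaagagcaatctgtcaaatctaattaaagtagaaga
ACTG1 (chr17:81512800-81513049, minus strand): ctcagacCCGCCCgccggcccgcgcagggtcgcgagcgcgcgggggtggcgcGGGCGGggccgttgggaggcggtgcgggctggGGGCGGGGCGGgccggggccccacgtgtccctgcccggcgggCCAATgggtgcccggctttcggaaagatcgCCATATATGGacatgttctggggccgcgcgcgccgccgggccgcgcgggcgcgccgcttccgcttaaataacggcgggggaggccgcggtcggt
TUBB2A (chr6:3157545-3157794, minus strand): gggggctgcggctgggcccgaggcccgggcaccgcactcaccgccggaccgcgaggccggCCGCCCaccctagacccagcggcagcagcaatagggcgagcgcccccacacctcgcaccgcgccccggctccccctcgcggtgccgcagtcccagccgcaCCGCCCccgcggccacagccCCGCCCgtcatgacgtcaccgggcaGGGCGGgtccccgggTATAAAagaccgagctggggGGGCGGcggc
TUBB2B (chr6:3227654-3227903, minus strand): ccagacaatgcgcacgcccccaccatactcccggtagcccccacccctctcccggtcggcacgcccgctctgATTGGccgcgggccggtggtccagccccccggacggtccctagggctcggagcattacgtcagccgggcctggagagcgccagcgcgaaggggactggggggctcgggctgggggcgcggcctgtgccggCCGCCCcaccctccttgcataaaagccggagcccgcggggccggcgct

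The windows differed widely in base composition. The 300-base window of TUBA1B was 77.0% G or C with a CpG observed over expected ratio of 0.967, and that of TUBA1A was 55.7% with 0.689. The median over 22156 windows of protein-coding genes was 62.3% and 0.738. The TUBA1C window at the gene start held 48.0% G or C with a CpG ratio of 0.123, and 7.35% of all windows had a lower ratio. The inner TUBA1C window had 67.7% and 0.743. A high GC content did not always go with a peak over the start. The inner start of TUBB6 had the highest of the members, 81.3%, and TUBB2B had 74.7%. Neither start lay under a peak in any library. The inner TUBB6 start lies 572 bases past the gene start. The strongest TUBB6 peak began close after it, at 727 to 797 bases, in every library. The ACTG1 window carried a CArG box that begins at -94 from the start, a motif present in 1.25% of all windows. The exact string TATAAA (9.46% of windows) was found among the members at -30 of TUBB2A only. Variants were not searched, such as the TATATAA that lies before the TUBB4B start and the inner TUBA1C start. GGGCGG (56.3% of windows) occurred 3 times at TUBA1B, 4 times at ACTG1, 5 times at TUBB2A and 1 time at TUBB2B. It was absent at TUBA1A, TUBB4B and the TUBA1C gene start, and occurred 2 times at the inner TUBA1C start. The inner starts of TUBB and TUBB6 each had it 6 times and lay under a peak in 5 and 0 libraries. The gene starts of TUBB and TUBB6 had it 1 and 0 times, and each lay under a peak in 3 libraries. CCAAT (34.6% of windows) was found 3 times at TUBB4B and 2 times at TUBA1A. These matches are descriptions of letters and do not show binding.

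Coverage set a high group of members apart from the rest, which ranged widely. The measure is the percent of a gene, with 1 kb added at both ends, that lies under peaks, counted after each list was cut to its 63456 strongest peaks by -log10 p, the length of the shortest list. ACTB, ACTG1, TUBA1B, TUBB and TUBB4B were covered over 74.6% to 100% in every library. TUBB6 followed with 34.0% to 66.8%, TUBA1C and TUBB2A lay between 16.6% and 30.7%, and TUBA1A and TUBB2B at the low end reached 23.8% and 6.57%. The median of the 10 members was 64.7% by their mean over libraries, while the median protein-coding gene was at 1.29%, and 8 of the 10 members against 47.9% of all protein-coding genes had a peak in every library. The members differ in length: 8 are at most 5071 bases long, whereas TUBB6 spans 22158 and TUBA1C 46675 bases.

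**Figure D1:**
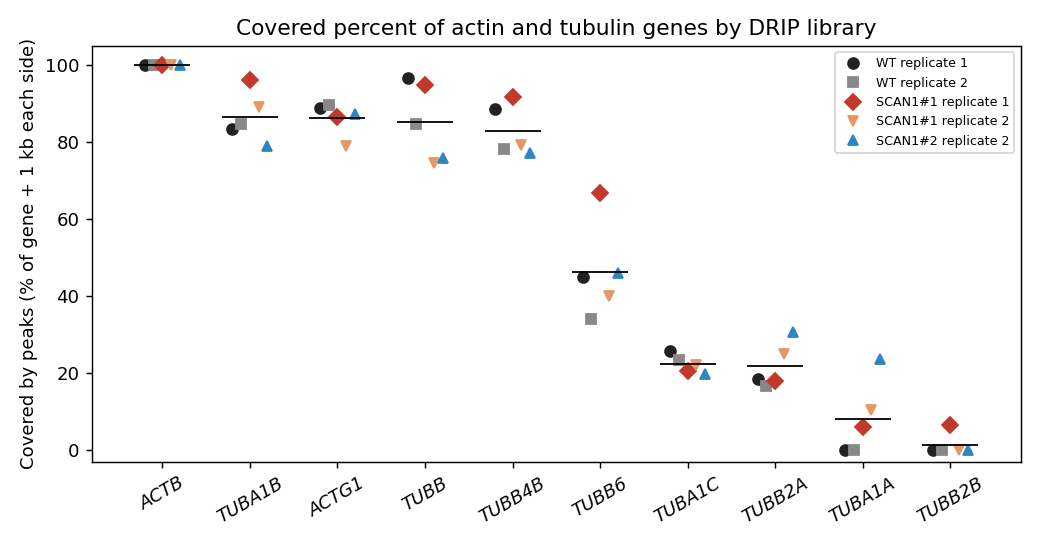
Percent of each gene with 1 kb added at both ends that lies under peaks (y axis, lists of equal length), for the 10 genes in order of their mean (x axis). Points are the 5 libraries and lines the mean over them. The 5 genes on the left lie between 74.6% and 100% in every library, and no other gene exceeds 66.8%.

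The actin genes were both covered almost throughout. ACTB (chromosome 7, 5527148 to 5530601), which encodes beta-actin, was at 100% in all 5 libraries, as were 14 protein-coding genes in all. ACTB had 1 peak per library. Its width was 14955 (replicate 1) and 9534 bases (replicate 2) in WT, 14752 and 11362 bases in SCAN1#1 and 8750 bases in SCAN1#2, and values below keep this order. All were wider than the gene of 3454 bases, and at most 0.0984% of the peaks of a list were wider. The experiment 1 libraries had the widest peaks in both genotypes. These peaks reached 4143 to 9826 bases beyond the lower-coordinate end of ACTB, across LOC221946, and 1153 to 1675 bases beyond the higher one. ACTB is known to be transcribed towards lower coordinates, so the long side lies downstream of the gene. The fold enrichment of a peak, the authors' ratio over the caller's background estimate, was 63.1 and 67.9 in WT and 84.2, 79.0 and 56.5 in the SCAN1 libraries. By fold enrichment the ACTB peak ranked 16 to 102 among the 63456 peaks of each list.

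ACTG1 (chromosome 17, 81509971 to 81512799), the gene of gamma-actin, was covered over 88.9% and 89.6% in WT, 86.6% and 79.1% in SCAN1#1, and 87.3% in SCAN1#2. The 3 SCAN1 values were all below both WT values, as in 6.86% of the 8472 genes with a mean of at least 2%. The gene without its flanks was covered over 99.5% to 100% in every library. Its difference of SCAN1 minus WT was then -0.271 points. Its strongest peak began within 103 bases upstream to 13 bases downstream of the transcript start in every library, and ran 1425 to 4790 bases beyond the gene end. The 1 kb downstream of ACTG1 was covered entirely in every library, and the 1 kb upstream over 0% to 49.9%. In 4 libraries a smaller separate peak lay upstream of the start, which in SCAN1#2 extended over FSCN2, a neighbouring gene for an actin-bundling protein. The strongest fold enrichment was 14.9 and 32.9 in WT, 28.4 and 25.8 in SCAN1#1, and 28.9 in SCAN1#2, with WT replicate 1 apart from the rest. ACTB therefore had the stronger and wider peaks of the actin genes in each library.

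**Figure D2:**
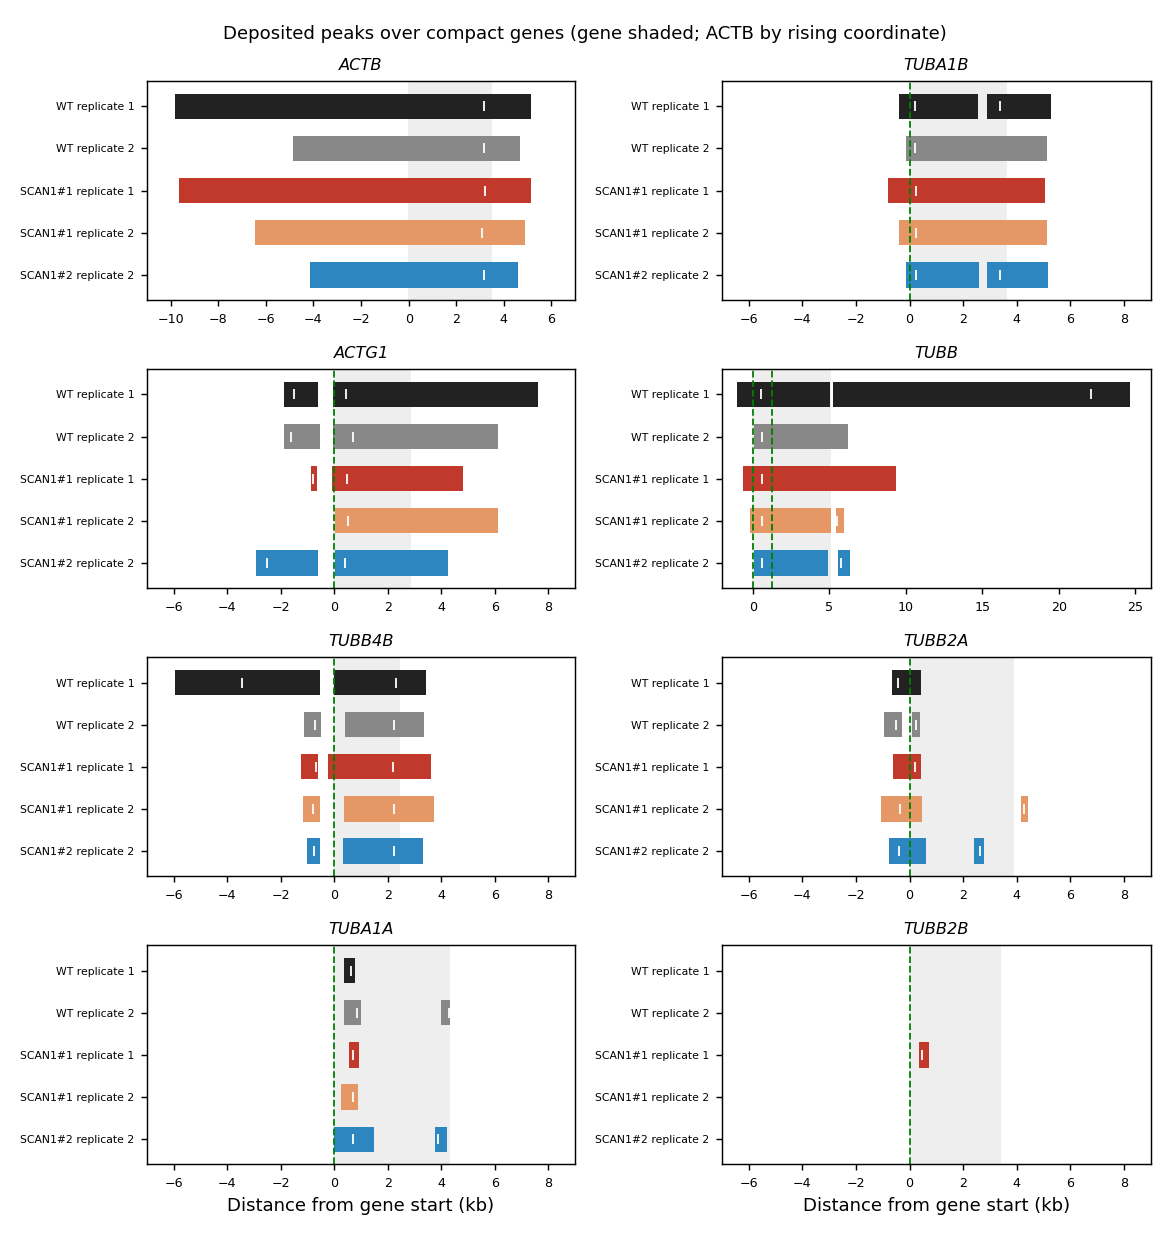
Deposited peaks over the 8 compact genes in each library (bars, one row per library) against the distance from the gene start in kb; shading marks the gene, dashed lines RefSeq transcript starts and white ticks the summits. ACTB is drawn by rising coordinate and the other genes in the direction of transcription; the ACTB and TUBB panels have wider x axes. Peaks of ACTG1, TUBA1B, TUBB and TUBB4B span nearly the whole gene, and the strongest ones of TUBA1A and TUBB2A lie near the start.

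The alpha-tubulin genes TUBA1B, TUBA1A and TUBA1C lie in this order within chromosome 12, 49127782 to 49274600, and their peaks were unlike. TUBA1B, a broadly expressed alpha-tubulin gene, had a strongest fold enrichment of 111 and 93.9 for WT, 68.5 and 130 for SCAN1#1, and 108 for SCAN1#2. This was the highest of the members in 4 libraries, and in SCAN1#1 replicate 1 ACTB was higher. The lowest value was that of SCAN1#1 replicate 1 and the highest that of the same line in experiment 2, so the genotypes overlapped. The peak ranked 10 to 25 among the 63456 peaks of each list. The summit lay 218 to 235 bases downstream of the transcript start whose upstream sequence is printed above, a spread of 17 bases, the smallest of the members with a peak in all libraries. TUBA1B was covered over 83.5% and 84.7% in WT, 96.2% and 89.0% in SCAN1#1, and 79.1% in SCAN1#2. In WT replicate 1 and SCAN1#2 the domain was split into 2 peaks, with the gap inside the gene. The 1 kb downstream was covered entirely in all libraries and the 1 kb upstream over 14.1% to 78.9%. In 3 libraries the peak reached TUBA1B-AS1, a noncoding RNA gene that starts upstream of TUBA1B, and peaks carry no strand.

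TUBA1A, the alpha-tubulin of young neurons, had peaks of at most 1494 bases, near its start and, in WT replicate 2 and SCAN1#2, also near its end. In the lists as deposited it was covered over 6.59% and 15.7% in WT, 6.08% and 10.5% in SCAN1#1, and 30.8% in SCAN1#2. The 2 WT values lay within the range of the 3 SCAN1 values. With lists of equal length the WT values became 0% and 0%, while SCAN1#1 had 6.08% and 10.5% and SCAN1#2 23.8%, because the WT peaks fell outside the strongest 63456. The summit of the strongest peak lay 636 to 851 bases past the start in all 5 libraries, and no peak lay over the start. Its fold enrichment was 3.01 and 4.59 in WT, 5.95 and 7.34 in SCAN1#1, and 15.4 in SCAN1#2, where the peak was also widest (1494 bases, against 382 to 657).

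TUBA1C, also a broadly expressed alpha-tubulin, had a covered percent of 25.7% and 23.5% in WT, 20.4% and 22.03% in SCAN1#1, and 19.9% in SCAN1#2. The SCAN1 libraries were all below the WT ones, as in the 6.86% of genes given for ACTG1. In the lists as deposited the groups overlapped (26.3% and 24.15% in WT, 20.4%, 24.15% and 20.6% in SCAN1). RefSeq lists outer transcript starts at the gene start and 93 bases on, and an inner start 37156 bases downstream. Peaks gathered at the inner start: from 1 kb before it to 1 kb past the gene end, 86.7% and 82.8% of the sequence was covered in WT, 75.2% and 93.1% in SCAN1#1, and 80.6% in SCAN1#2. The remaining 37156 bases before that stretch were covered over 0% to 6.74%. This division of the gene was made after its peaks were seen. Measured from the inner start, the covered percent of TUBA1C overlapped that of TUBA1B, while its strongest fold enrichment of 13.5 to 16.7 was below that of TUBA1B in every library.

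**Figure D3:**
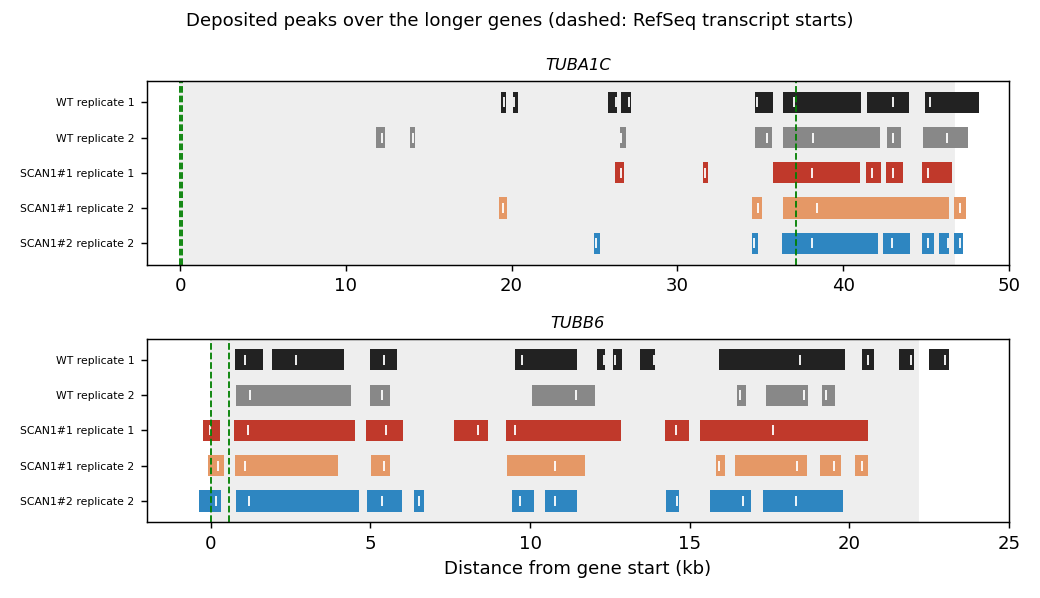
Deposited peaks over TUBA1C and TUBB6 in each library (bars) against the distance from the gene start in kb; shading marks the gene, dashed lines RefSeq transcript starts and white ticks the summits. TUBA1C peaks gather around and after the inner start at 37156 bases, and TUBB6 peaks are spread in several blocks along the gene.

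Among the beta-tubulin genes, TUBB and TUBB4B were in the high group. TUBB (chromosome 6, 30720352 to 30725422), the main beta-tubulin gene of many cell types, was at a covered percent of 96.6% and 84.7% in WT, 94.9% and 74.6% in SCAN1#1, and 75.8% in SCAN1#2. The experiment 1 libraries were the highest of both genotypes. The strongest peak had a fold enrichment of 51.7 and 59.5 in WT, 35.4 and 71.7 in SCAN1#1, and 82.2 in SCAN1#2, with its summit 558 to 628 bases past the outer start in all libraries. Beyond the gene the libraries differed. In WT replicate 1 a further peak of 19396 bases ran on over FLOT1, IER3-AS1 and IER3, in SCAN1#1 replicate 1 a single peak of 9997 bases reached FLOT1, and in the experiment 2 libraries no peak at TUBB overlapped FLOT1.

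TUBB4B (chromosome 9, 137241287 to 137243707), also widely expressed, was covered over 88.6% and 78.1% in WT, 91.7% and 79.3% in SCAN1#1, and 77.3% in SCAN1#2. The libraries of experiment 1 were again above those of experiment 2, and a peak lay over its start in the former alone. Its summits were placed unlike those of the other highly covered genes, 2190 to 2308 bases past the start in a gene of 2421 bases and thus near the gene end. The strongest peak ran 876 to 1312 bases past that end and overlapped CIMIP2A, the neighbouring gene, in every library, so that the summit cannot be assigned to either gene. The fold enrichment was 19.9 and 32.5 in WT, 16.1 and 28.3 in SCAN1#1, and 25.8 in SCAN1#2. A weaker peak lay upstream in all 5 libraries, apart from the main one, with a fold enrichment of 5.31 to 8.11. In WT replicate 1 it was 5452 bases wide, wider than the main peak, and reached SLC34A3.

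TUBB6 (chromosome 18, 12307669 to 12329826), which encodes a class V beta-tubulin, was covered over 45.0% and 34.0% in WT, 66.8% and 40.1% in SCAN1#1, and 46.0% in SCAN1#2. SCAN1#1 replicate 1 stood above the others and the genotypes overlapped. TUBB6 had 6 to 11 peaks per library, with the summit of the strongest 493 to 673 bases past its inner start. The strongest fold enrichment was 8.13 and 9.41 in WT, 12.4 and 16.2 in SCAN1#1, and 19.4 in SCAN1#2. In lists of equal length this peak ranked 5755 and 9706 in WT, 1535 and 2556 in SCAN1#1, and 1300 in SCAN1#2. It was thus ahead in every SCAN1 library, as in 10.5% of the 8472 genes with a mean coverage of at least 2%.

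TUBB2A and TUBB2B, neighbouring copies on chromosome 6, differed although both encode class II beta-tubulins, best known from neurons. TUBB2A (3153666 to 3157544) was covered over 18.5% and 16.6% in WT, 17.9% and 24.9% in SCAN1#1, and 30.7% in SCAN1#2, where SCAN1#1 replicate 1 fell within the WT range. Its strongest peak covered the start or lay just upstream of it in each library. The 1 kb upstream was covered over 62.5% to 100% and the 1 kb downstream not at all in lists of equal length. A further peak of 402 bases lay inside the gene in SCAN1#2, and one past the gene end in the deposited list of SCAN1#1 replicate 2. The upstream stretch also holds LOC105374889, a noncoding RNA gene whose RNA cannot be told apart from that of TUBB2A in these lists. The strongest fold enrichment was 8.16 and 5.68 in WT, 8.81 and 12.6 in SCAN1#1, and 12.5 in SCAN1#2. TUBB2B (3224277 to 3227653) had a single peak of 353 bases in SCAN1#1 replicate 1, with a fold enrichment of 4.63, and none in the other 4 libraries.

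**Figure D4:**
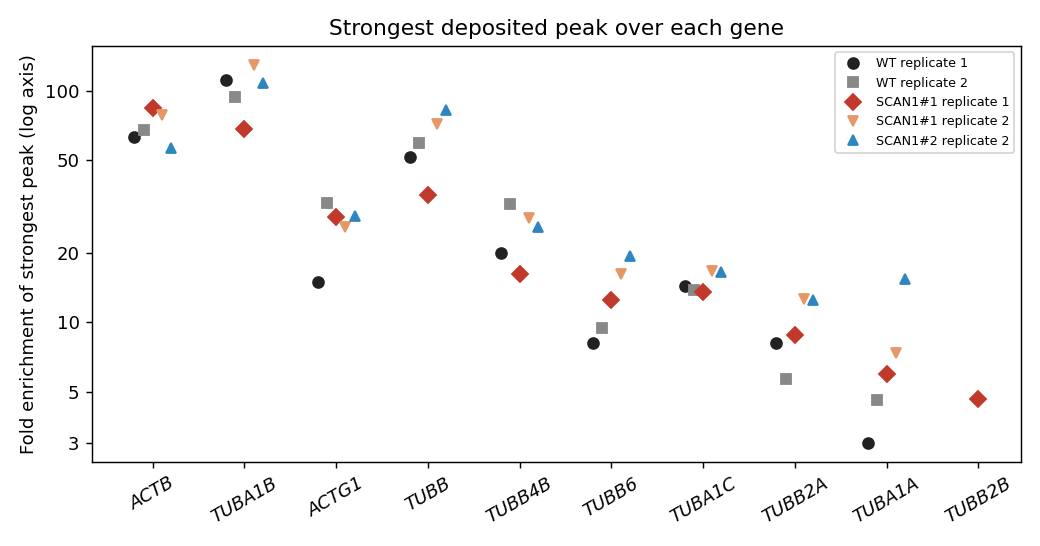
Fold enrichment of the strongest deposited peak over each gene (log y axis), for the 10 genes in the order of their covered percent (x axis), with a point for each library that has a peak. TUBA1B lies at 68.5 to 130 and TUBB2B has a point in SCAN1#1 replicate 1 only. Values come from separately called lists and are not tested against each other.

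Ordered by mean covered percent over the 5 libraries, the members were ACTB (100%), TUBA1B (86.5% ± 6.48, SD, n = 5), ACTG1 (86.3% ± 4.21), TUBB (85.3% ± 10.3), TUBB4B (83.0% ± 6.64), TUBB6 (46.4% ± 12.4), TUBA1C (22.3% ± 2.36), TUBB2A (21.7% ± 5.95), TUBA1A (8.06% ± 9.83) and TUBB2B (1.31% ± 2.94). The ranges of neighbours in this order overlapped except between ACTB and TUBA1B, between TUBB4B and TUBB6, and between TUBB6 and TUBA1C. TUBA1B, ACTG1, TUBB and TUBB4B therefore had no order beyond their spread. Against protein-coding genes of like length (within a factor of 1.25), 94.1% to 99.8% had a lower mean than ACTB, TUBA1B, ACTG1, TUBB or TUBB4B. The share was 98.0% for TUBB6 and 97.6% for TUBA1C, but 71.1% for TUBB2A, 59.0% for TUBA1A and 51.3% for TUBB2B. By root mean square difference over the 5 libraries, the genes most like the members' mean profile were RAD9A (3.25 points), UQCRC1 (4.16), FJX1 (4.35), PDF (4.50) and TMSB4X (4.80). That profile lay at 51.1% to 58.7% by library, between TUBB6 and TUBB4B, where no member had its mean. Likeness to it is therefore not likeness to a single member.

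The side of the gene on which peaks extended also differed. Of the 9 members with a strand in the promoter table, the 1 kb downstream was covered more than the 1 kb upstream on average in 5 (TUBB, TUBB4B, TUBA1B, TUBA1C and ACTG1) and less in TUBB2A and TUBB6, and both were at 0% in TUBA1A and TUBB2B. ACTG1, TUBA1B and TUBB4B had the higher value downstream in 5 of 5 libraries, TUBB in 3. Among 6832 tested genes with a strand, downstream was higher in 35.6% and upstream in 42.8%. Among the 288 genes covered over at least 75%, downstream was higher in 70.5%, and 4 such genes with a strand are members, all of them higher downstream.

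The comparison of genotypes asks whether coverage of the members differed in TDP1 H493R cells. No member passed the test. The filter of a mean of at least 2% was passed by 9 of the 10 members, all but TUBB2B. Of these 9, limma called 0 at an adjusted p under 0.05 and 0 had an unadjusted p under 0.05. Over all 8472 tested genes 0 were called (0%), and an unadjusted p under 0.05 was reached by 164 with higher and 131 with lower SCAN1 values. The difference of SCAN1 (n = 3) minus WT (n = 2) was positive in 4 members, negative in 4 and 0 in ACTB. The median was 0 points against 0.081 over all tested genes. That median is the value of ACTB alone, which was at 100%, the ceiling of the measure, in every library. TUBA1A was at 13.4 points ± 5.40 (SE; limma, adjusted p = 1). It passed the filter only through the SCAN1 libraries, since both WT values were 0%, and in the lists as deposited the difference was 4.65. TUBB6 differed by 11.4 ± 12.1 and TUBB2A by 6.93 ± 5.97, while TUBB was at -8.89 ± 7.95, ACTG1 at -4.93 ± 4.2 and TUBA1C at -3.81 ± 4.97 (limma, adjusted p = 1 for each). TUBA1B was at 4.02 ± 5.83 and TUBB4B at -0.588 ± 6.46 (limma, adjusted p = 1 for each). The differences of TUBB6, TUBA1C, TUBA1B and TUBB4B were smaller than their standard errors. Leaving out 1 library moved TUBB6 to 3.504 (without SCAN1#1 replicate 1), TUBB to -2.95 (without WT replicate 1), TUBB2A to 3.83 (without SCAN1#2) and ACTG1 to -2.30 (without SCAN1#1 replicate 2). Without the flanks TUBB was at -0.431 and ACTG1 at -0.271. Of the 5 osteoblast and mesenchymal markers that were tested, 1 had a positive and 4 a negative difference, with a median of -7.01 points. Experiment was not a block in these differences. They ranged from COL1A1 at -37.4 to VIM at 0.197 (limma, adjusted p = 1 for COL1A1). Of these markers 2, COL1A1 and THY1 (-28.8 points), had an unadjusted limma p under 0.05, and 0 were called. The part of the markers in the members' values was not tested.

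In some members the groups did not overlap. All 3 SCAN1 values were above both WT values in TUBA1A, as in 9.48% of tested genes, and below both in ACTG1 and TUBA1C, as in 6.86%. For TUBA1A and TUBA1C this rests on lists of equal length, since the groups overlapped in the lists as deposited. By the rank of the strongest peak in lists of equal length, TUBB6 was ahead in every SCAN1 library and TUBB4B behind in every one. Genes without a peak were given the last place here, which puts TUBA1A ahead as well, only because it has no WT peak in these lists. The shares of tested genes ahead and behind were 10.5% and 8.27%. Each of these counts is 1 or 2 of 9 members.

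Within experiments, the members went in different directions. For SCAN1#1 minus WT in experiment 1, 5 members were higher and 4 lower, led by TUBB6 (21.8 points) and TUBA1B (12.8). For SCAN1#1 in experiment 2, 5 were higher and 3 lower, with TUBA1A (10.5) and TUBB2A (8.28) above and ACTG1 (-10.5) and TUBB (-10.1) below. For SCAN1#2, 3 were higher and 5 lower, with TUBA1A (23.8), TUBB2A (14.1) and TUBB6 (11.9) above and TUBB (-8.92) below. The last comparisons share WT replicate 2. The TUBA1A differences rest on lists of equal length, where both WT values were 0%. In the lists as deposited TUBA1A was at 6.59% and 15.7% in WT, 6.08% and 10.5% in SCAN1#1, and 30.8% in SCAN1#2. There SCAN1#1 was below the WT of its experiment each time, and SCAN1#2 was above it. With experiment as a block, TUBB6 was at 14.5 ± 6.86 and TUBB at -6.16 ± 3.47 (limma, adjusted p = 0.751 for each), and limma again called 0 members.

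**Figure D5:**
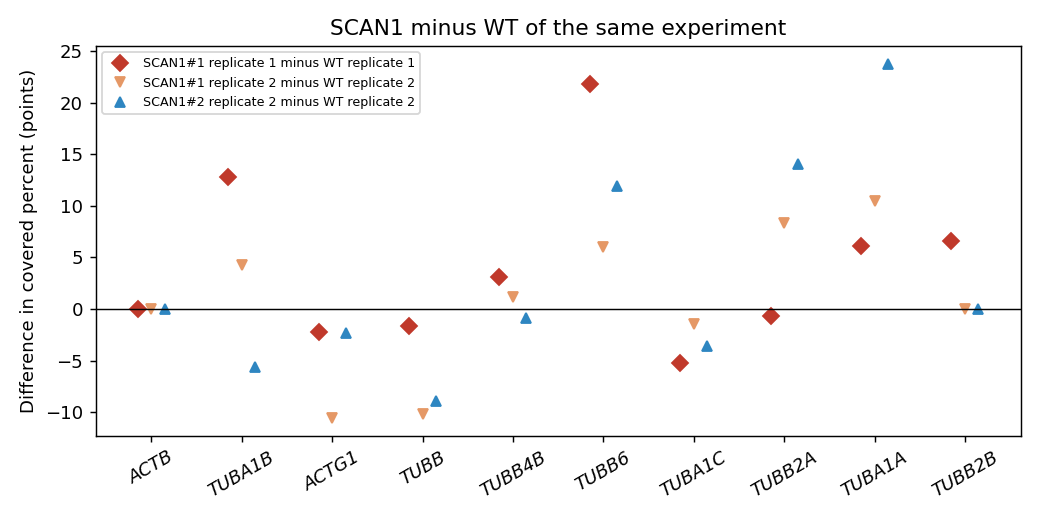
Difference in covered percent, SCAN1 minus WT of the same experiment, in points (y axis) for the 10 genes in order of their mean covered percent (x axis). Points are the 3 comparisons, of which the experiment 2 ones share a WT library. Values are from lists of equal length, in which TUBA1A is at 0% in both WT libraries. TUBA1A lies between 6.08 and 23.8 and TUBB between -10.1 and -1.68. In the lists as deposited SCAN1#1 is below WT for TUBA1A in each experiment.

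Libraries also differed by experiment. In the fit with genotype as a covariate, experiment 2 minus experiment 1 was -16.4 points ± 3.47 (SE) for TUBB, -12.1 ± 3.25 for TUBB4B and -18.3 ± 6.86 for TUBB6 (limma, adjusted p = 0.124, 0.158 and 0.238). Of the 9 members 0 were called, and of all 8472 tested genes 0% were higher and 0% lower by the adjusted p. At an unadjusted p under 0.05 were 2 members, TUBB and TUBB4B, and 314 genes higher and 1506 lower among all tested. The shift from experiment 1 to 2 was -11.9 points in WT and -20.3 in SCAN1#1 for TUBB, -10.4 and -12.4 for TUBB4B, and -10.98 and -26.7 for TUBB6. ACTG1 and TUBA1B differed by 0.725 and 1.23 in WT and by -7.56 and -7.23 in SCAN1#1.

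Genes that work with actin and tubulin were read from fixed lists, chosen with earlier results known; limma called 0 genes in each for genotype, and 0 had an unadjusted p under 0.05. The other 19 actins and tubulins, among them the muscle actins, were far less covered than the members. Their median was 2.16%, the highest was TUBD1, the delta-tubulin of centrioles, at 22.1%, and 6 had no peak in any library. Of their 10 tested genes 1 had a positive difference (SCAN1 minus WT) and 9 a negative one, with a median of -2.50 points, beside 4361 positive and 4097 negative of all 8472 tested genes. Experiment was not a block in the differences of these lists. Experiment 2 holds a larger share of the SCAN1 libraries than of the WT ones. At an unadjusted limma p under 0.05, 1506 tested genes were lower in experiment 2 and 314 higher. Signs within each experiment were not counted for the lists. Of the 37 actin filament proteins 36 had a peak in every library. MYL6, a myosin light chain, was at 100%, PFN1, the actin monomer binder profilin, at 94.8%, and TPM2, a tropomyosin, at 88.4%. Of the 35 tested, 16 had positive and 18 negative differences, from TPM1, another tropomyosin, at -17.1 points to WDR1, which aids filament disassembly, at 16.6. The 22 folding factors of actin and tubulin had a median of 12.8%, led by PFDN6 (70.6%) and TBCB (50.8%), subunit and cofactor of the path that folds tubulin. Of 13 microtubule proteins STMN1, which binds tubulin dimers, was highest at 22.2%. Among intermediate filaments and lamins, KRT18, a keratin, was at 97.3% and VIM, vimentin, at 41.4%.

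Most pseudogenes of these actins and tubulins carried no peak, and the share over all pseudogenes was not counted. Of 68 in RefSeq with names derived from ACTB, ACTG1, TUBA or TUBB genes, 60 had no peak in any library as deposited and 0 had a peak in all 5. The 8 with a peak were ACTG1P20, ACTG1P25, ACTG1P17, ACTG1P24, ACTBP4, ACTBP8, ACTBP14 and TUBB6P1, with fold enrichments of at most 11.5. ACTG1P20 lies in TMEM222 and ACTBP4 in FNIP1, both protein-coding genes. The placement of reads that match several copies is not stated, and its part in the values of near-identical members was not tested.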

How the data were processed

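The submitters' processing notes name MACS3 3.0.0a6 and BWA 0.7.17-r1188, besides FastQC 0.11.5, deepTools 3.5.1, SAMtools 1.9 and the build hg38, without roles. Per the layout of the deposited files, a peak has a score (10 times its -log10 q, rounded down), a fold enrichment ratio over the caller's background, a -log10 p, a -log10 q and a summit. Lists are per library. The caller's control and options are not stated, and the 5 input samples are not analysed here.

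Gene positions are RefSeq GRCh38.p14, 1-based. Covered percent used genes with 1 kb added at both ends and the 63456 peaks of highest -log10 p per library. limma 3.58.1 (R 4.3.3, lmFit, eBayes with trend) was fitted over the 8472 coding genes whose mean reached 2%. Benjamini-Hochberg adjustment was over all of them, threshold 0.05. The code was tested on simulated data. Their shift was far larger than any member's difference and their spread was reduced, so power for differences of the members' size was not tested. Python 3.11.15, numpy 2.4.6, pandas 2.3.3 and matplotlib 3.10.9 were used.

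The members and context lists were chosen with earlier results of these data known. Named genes are the members, genes sharing their peaks, the 5 genes closest to their mean profile and up to 3 genes of highest coverage and 2 of largest difference per list; markers are described as a list. Replicate numbers are the experiment numbers of the labels, so they pair the samples; the shift from experiment 1 to 2 correlated by 0.573 across 8472 genes between WT and SCAN1#1 (genes are not independent replicates).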

Additional observations from a re-analysis of the deposited data

Results flagged for a closer look

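TUBA1B and TUBB4B are listed because SCAN1#1 stood on the other side of WT from SCAN1#2. For TUBA1B the covered percent of SCAN1#1 minus WT was 12.8 points in experiment 1 and 4.29 in experiment 2, and that of SCAN1#2 minus WT was -5.59. For TUBB4B the values were 3.14 and 1.18 for SCAN1#1 and -0.882 for SCAN1#2. The difference between the lines was not tested, SCAN1#2 has 1 library, and its comparison shares WT replicate 2 with SCAN1#1 of experiment 2.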

How the results depend on the processing

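With lists as deposited, the replicate block, no flank or 2 kb, peaks of -log10 q of at least 5, a log2 scale, no filter or a filter of 10%, gene ends only, and without each library in turn, limma called 0 members for genotype, and 0 for experiment wherever that fit was run. The median difference of the members was -0.294 to 1.43 points over the other settings and -0.0356 to 3.41 without 1 library; on the log2 scale, which has another unit, it was not run. Of 125 alternative values of single members 5 changed sign, and the smallest adjusted p among the 125 was 0.385 (limma). ACTB, at 0 in the report, was at -0.255 with 2 kb. Those that changed sign were TUBB4B, at 1.43 with the replicate block and at -5.79 to 4.61 without 1 library, and TUBA1B, at -0.0356 to 8.52 without 1 library, the lowest being without SCAN1#1 replicate 1. TUBA1C ran from -19.9 (gene ends only) to -1.77 and TUBA1A from 4.65 (as deposited) to 19.7. Without 1 library TUBB6 ran from 3.504 to 16.9, TUBB from -15.5 to -2.95, TUBB2A from 3.83 to 10.2 and ACTG1 from -6.40 to -2.30; gene ends only gave -15.7 for TUBB and 6.52 for TUBB6. Pairing by replicate block changed no call. Peak lists without depth give no counting error, and a weak peak under a list's threshold is not seen.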
